A study of Mus musculus with 4 samples.

Results

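The 10 genes described here code for proteins that activated and regulatory T cells make: the granule proteases Gzmb and Gzma, the CD28-family receptors Cd28, Icos and Ctla4, the tumour necrosis factor receptors Tnfrsf4 (OX40), Tnfrsf9 (4-1BB) and Tnfrsf18 (GITR), the interleukin 2 receptor alpha chain Il2ra, and Foxp3, the transcription factor that defines regulatory T cells. They were taken by gene symbol from the annotation of the array, an Affymetrix mouse expression array, and 16 of its 45037 probe sets that are not controls carry 1 of these symbols. The annotation names 18193 genes through probe sets with 1 symbol. The genes were chosen by their signals in bitransgenic against wild type skin on these same arrays, so those values, and any count of these genes past a threshold, describe the choice and test nothing.

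Messenger RNA was measured in dorsal skin at postnatal day 16 from 2 bitransgenic mice that overexpress deltaNp63alpha, an amino-terminally shortened isoform of the epithelial transcription factor p63, and from 2 wild type mice, with 1 array per animal (n = 2 per group throughout). The labels name the animals of a group as biological replicates. The sources used here do not state the promoter that drives the transgene, the strain, sex or litter of the animals, or any inducing treatment. The skin was taken whole, so fewer cells of a type and less RNA per cell cannot be told apart.

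A T cell needs a signal through its antigen receptor and a second, costimulatory signal, which Cd28 gives from the start. Activation then brings up Icos, Tnfrsf4, Tnfrsf9 and the high-affinity interleukin 2 receptor, while Ctla4, which binds the same ligands as Cd28, restrains the response. Regulatory T cells carry Foxp3, Ctla4, Tnfrsf18 and Il2ra without fresh activation. Mouse skin holds regulatory T cells around hair follicles and dendritic epidermal T cells, a gamma delta population, among the keratinocytes. Several of the 10 genes are also known from natural killer cells and from other lymphocytes.

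Values are probe set signals in array intensity units, and the 4 arrays share a trimmed mean of 497.4 to 498.1. Array medians lay at 101.4 and 97.9 in bitransgenic and at 113.1 and 99.1 in wild type skin. Over 27022 probe sets the correlation of log2 values was 0.949 between the bitransgenic arrays and 0.918 between the wild type arrays, and wild type replicate 2 correlated with bitransgenic replicate 2 at 0.920. Of 4 probe sets for Trp63, the gene of the transgene, 2 were higher in bitransgenic skin by more than 4 on the log2 scale: 1451876_a_at read 10325 and 15247 in bitransgenic skin, against 205.7 and 837.8 in wild type skin. Probe set 1418158_at read 5176 and 5302 in bitransgenic skin, against 4968 and 5812 in wild type skin.

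Of the 16 probe sets of the 10 genes, 13 had both bitransgenic signals above both wild type signals, 3 overlapped and 0 were lower without overlap. Read by their brightest probe set, 9 of the 10 genes were higher without overlap, against 22.6% of 18193 genes. Over all 45037 probe sets, 20.6% lay higher without overlap and 19.3% lower. With each gene read by its brightest probe set, the log2 difference of bitransgenic minus wild type ran from 0.013 for Cd28 to 3.92 for Gzmb, with a median of 1.78 over the 10 genes and of 0.011 over all 18193 genes. These differences, and all folds below, are on the scale of log2(signal + 16), which shrinks the differences of dim probe sets. A gene entered the test across genes when its mean on that scale reached 6.19, which corresponds to a signal of 57.0. This admitted 6 of the 10 genes, Gzmb, Ctla4, Icos, Tnfrsf4, Tnfrsf9 and Tnfrsf18, and left out Gzma, Il2ra, Foxp3 and Cd28. In limma's fit of 13070 genes at an adjusted p under 0.05, 5 of the 6 were called higher, all but Tnfrsf4, where 0.75% of all genes were called higher and 1.58% lower. At the same threshold, the fit of all 45037 probe sets, which gives the SEs of the 10 genes below, called 0 of their 16 probe sets. Gzmb and Ctla4 passed the filter through their bitransgenic signals, and the genes were chosen on this contrast, so nothing is read from the count of genes called. It was 1, Gzmb, with no filter and without either bitransgenic array, and it was 4 without wild type replicate 1 and 6 when the other wild type array was left out.

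**Figure D1:**
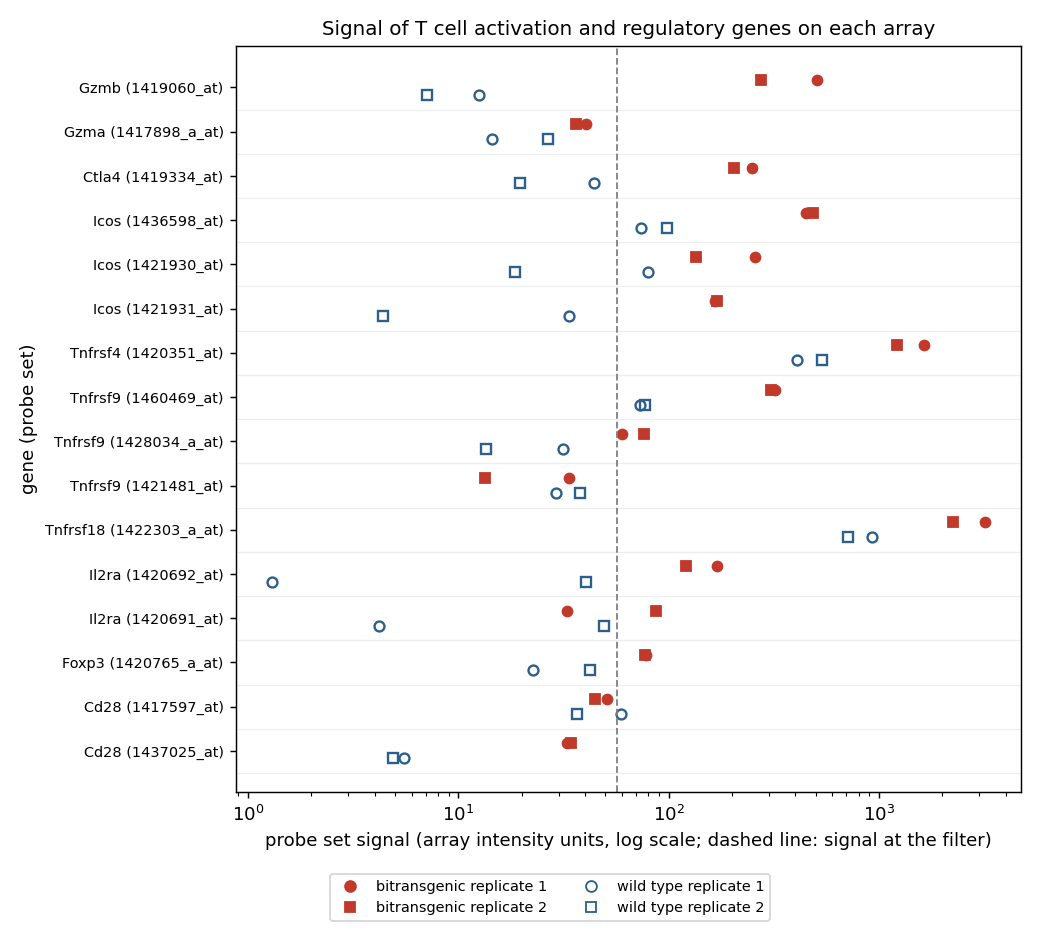
Signal of each of the 16 probe sets on each array, in array intensity units on a log scale, with bitransgenic arrays as filled and wild type arrays as open symbols, and a dashed line at a signal of 57.0. Both bitransgenic arrays lie right of both wild type arrays for 13 probe sets, and 4 probe sets, of Icos, Tnfrsf4, Tnfrsf9 and Tnfrsf18, lie above the dashed line on all 4 arrays.

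Among the effector proteases, Gzmb showed the largest difference of the 10 genes. Granzyme B is the serine protease that cytotoxic lymphocytes deliver into target cells to start apoptosis. Its probe set, 1419060_at, read 506.8 and 273.6 in bitransgenic skin, against 12.6 and 7.1 in wild type skin. Both wild type signals lay below 57.0, and the lower bitransgenic signal was still above it. The log2 difference was 3.92 ± 0.50 (SE, fit of all probe sets), or 15.1-fold, and it was 5.15 with a pseudocount of 1 and 2.57 with one of 64. Within replicate 1 it was 4.19 and within replicate 2 it was 3.65. Gzma, a tryptase-like granzyme of the same granules, on 1417898_a_at read 40.3 and 36.3 in bitransgenic skin, against 14.5 and 26.6 in wild type skin. The groups did not overlap, but all 4 signals lay below 57.0, and the log2 difference was 0.59 ± 0.42.

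The sequences before the starts of these 2 genes are shown because the granzymes stand far apart in the values above. Each run holds the 250 bases before the start of the RefSeq transcript, build GRCm38.p6, in the direction of the gene. Capitals mark 3 motifs searched on both strands: TGANTCA, bound by AP-1 factors; TGTGGT, bound by RUNX factors; and GGAAAA, the core bound by NFAT factors. The motifs do not overlap one another in these windows.
Gzmb, chr14:56262335-56262584, minus strand: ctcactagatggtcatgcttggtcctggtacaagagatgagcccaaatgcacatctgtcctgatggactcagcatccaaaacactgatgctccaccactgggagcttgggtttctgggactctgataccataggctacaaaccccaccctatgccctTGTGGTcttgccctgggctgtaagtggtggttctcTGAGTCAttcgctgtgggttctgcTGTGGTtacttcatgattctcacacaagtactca
Gzma, chr13:113100982-113101231, minus strand: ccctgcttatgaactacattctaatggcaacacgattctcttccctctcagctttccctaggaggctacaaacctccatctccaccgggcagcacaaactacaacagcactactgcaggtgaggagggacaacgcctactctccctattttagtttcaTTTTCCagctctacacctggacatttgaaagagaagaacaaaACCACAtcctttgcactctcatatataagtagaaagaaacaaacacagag
The Gzmb window held TGANTCA starting 58 bases before the start, and TGTGGT starting at 93 and 34 bases before it. The Gzma window held GGAAAA on the opposite strand at 92 bases and TGTGGT on the opposite strand at 50 bases before the start. Over 32851 windows of this length, 6.75% held TGANTCA, 14.0% held TGTGGT and 20.4% held GGAAAA. A match describes letters and not a bound site.

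The CD28 family gave 2 genes with separated groups and 1 without. Ctla4, the inhibitory receptor, on 1419334_at read 248.0 and 205.6 in bitransgenic skin, against 44.0 and 19.6 in wild type skin. The wild type signals were both below 57.0, and the log2 difference was 2.39 ± 0.48, or 5.23-fold. With signals this dim in wild type skin it depended on the pseudocount, at 2.90 with one of 1 and 1.61 with one of 64. Icos, the inducible costimulator, is read by 3 probe sets, and each had both bitransgenic signals above both wild type signals. The brightest, 1436598_at, read 447.5 and 487.9 in bitransgenic skin, against 73.7 and 98.5 in wild type skin, a log2 difference of 2.25 ± 0.36. Probe set 1421931_at read 165.5 and 169.7 in bitransgenic skin, against 33.6 and 4.4 in wild type skin (2.53 ± 0.57). Probe set 1421930_at read 257.9 and 134.9 in bitransgenic skin, against 80.1 and 18.7 in wild type skin (1.82 ± 0.64). The wild type arrays thus stood apart from each other in the last 2 probe sets, while the 3 probe sets kept the same order of the groups.

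Cd28, the costimulatory receptor of resting T cells, gave a different picture on each of its 2 probe sets. On 1417597_at it read 50.8 and 44.6 in bitransgenic skin, against 59.4 and 36.7 in wild type skin, with overlap and a log2 difference of 0.013 ± 0.46. On 1437025_at it read 32.9 and 34.3 in bitransgenic skin, against 5.5 and 4.9 in wild type skin, with a log2 difference of 1.23 ± 0.34. Of these 8 signals only that of 1417597_at in wild type replicate 1 reached 57.0. Whether Cd28 differed between genotypes was therefore not settled by these probe sets.

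The tumour necrosis factor receptors hold the brightest signals of the group. Tnfrsf18, or GITR, is high on regulatory T cells and rises on other T cells after activation. Its probe set, 1422303_a_at, read 3188 and 2240 in bitransgenic skin, against 922.7 and 714.0 in wild type skin, a log2 difference of 1.70 ± 0.29 or 3.25-fold. Each of these signals lay above those of the antigen receptor chains Cd3e, Cd3d and Cd3g, which are given below. Which cells of the whole skin gave the Tnfrsf18 signal was not tested. Tnfrsf4, or OX40, which prolongs the survival of activated T cells, on 1420351_at read 1630 and 1215 in bitransgenic skin, against 405.9 and 533.4 in wild type skin (1.56 ± 0.30, or 2.96-fold). In both genes the groups were separated and every signal lay above 57.0, so the pseudocount weighed little. With pseudocounts of 1 and 64 the log2 difference was 1.72 and 1.64 for Tnfrsf18, and 1.59 and 1.47 for Tnfrsf4. Over all 13 other settings it ran from 1.45 to 1.95 for Tnfrsf18 and from 1.35 to 1.77 for Tnfrsf4. The ends of both ranges came from leaving out a bitransgenic array.

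Tnfrsf9, or 4-1BB, a costimulator of activated cytotoxic T cells, is read by 3 probe sets that disagreed. The brightest, 1460469_at, read 319.3 and 307.3 in bitransgenic skin, against 72.7 and 77.6 in wild type skin, with narrow groups and a log2 difference of 1.85 ± 0.38. Probe set 1428034_a_at read 60.0 and 76.0 in bitransgenic skin, against 31.4 and 13.5 in wild type skin (1.16 ± 0.47). Probe set 1421481_at read 33.5 and 13.4 in bitransgenic skin, against 29.1 and 38.0 in wild type skin, with overlap and a negative value of -0.37 ± 0.45. All 4 signals of that probe set were below 57.0. The mean of the 3 probe sets gave a log2 difference of 0.88.

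Windows of a receptor from each family are shown next to those of the granzymes, 250 bases each with capitals as before.
Ctla4, chr1:60908775-60909024, plus strand: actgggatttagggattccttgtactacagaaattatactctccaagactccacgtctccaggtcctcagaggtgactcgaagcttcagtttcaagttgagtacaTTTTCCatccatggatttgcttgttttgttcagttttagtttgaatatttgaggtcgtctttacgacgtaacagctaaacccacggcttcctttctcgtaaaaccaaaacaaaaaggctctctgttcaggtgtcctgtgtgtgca
Tnfrsf18, chr4:156026072-156026321, plus strand: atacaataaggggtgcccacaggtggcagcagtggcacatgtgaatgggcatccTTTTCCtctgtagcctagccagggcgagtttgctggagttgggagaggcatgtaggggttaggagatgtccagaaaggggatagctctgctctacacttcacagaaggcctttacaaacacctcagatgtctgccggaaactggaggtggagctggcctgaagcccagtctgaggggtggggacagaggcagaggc
Each of them held GGAAAA on the opposite strand, at 145 bases before the start in Ctla4 and at 196 bases in Tnfrsf18, and neither held the letters of the other motifs. RefSeq windows were matched for 8 of the 10 genes, in 10 windows, of which 5 held GGAAAA, 2 held TGTGGT and 2 held TGANTCA. The second window with TGANTCA was 1 of 2 windows of Tnfrsf9, with the motif starting 15 bases before the start. Icos and Cd28 were the genes with no matched window.

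Il2ra and Foxp3 mark regulatory T cells together, although Il2ra also rises on any activated T cell, and both stayed below the filter. For Il2ra, probe set 1420692_at read 169.4 and 121.5 in bitransgenic skin, against 1.3 and 40.3 in wild type skin. The groups were separated, and the wild type arrays differed from each other by 1.70 on the log2 scale. The log2 difference was 2.36 ± 0.66, and it was 3.89 with a pseudocount of 1 and 1.33 with one of 64. Within replicate numbers it was 3.42 and 1.29. Probe set 1420691_at read 32.9 and 86.9 in bitransgenic skin, against 4.2 and 49.4 in wild type skin, with overlap (0.96 ± 0.70). Foxp3 on 1420765_a_at read 78.2 and 77.2 in bitransgenic skin, against 22.6 and 42.5 in wild type skin. Its groups were separated, and its log2 difference was 0.98 ± 0.47, or 1.97-fold. The bitransgenic signals of Foxp3 lay just above the signal of 57.0, and both wild type signals lay below it.

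**Figure D2:**
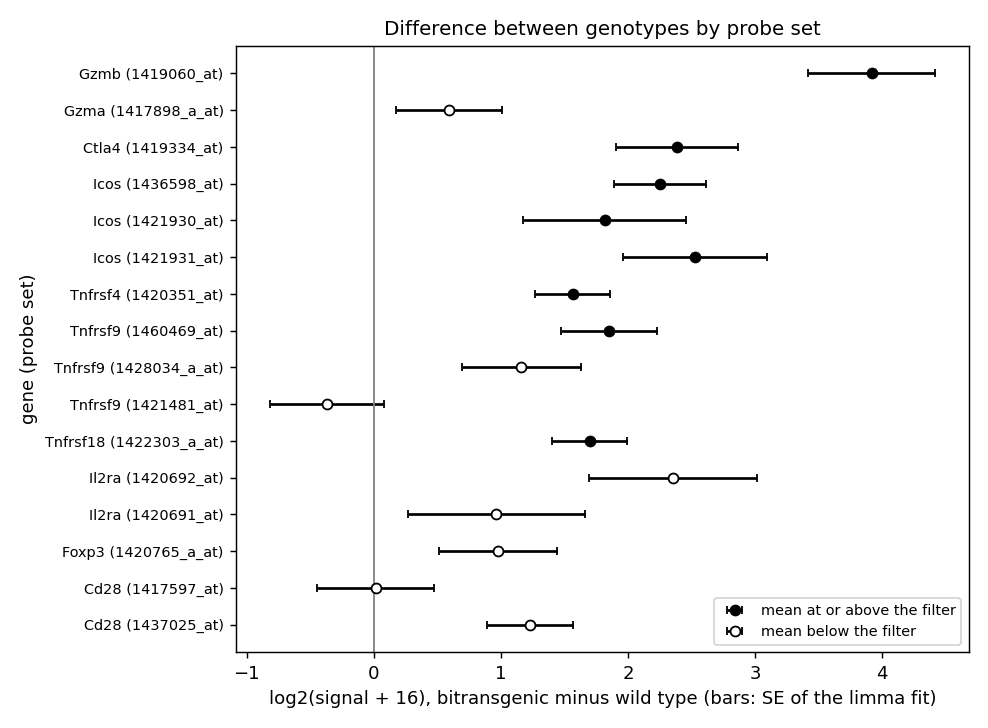
Log2 difference of bitransgenic minus wild type skin for each of the 16 probe sets, on the scale of log2(signal + 16), with bars for the SE of limma's fit of all probe sets; filled circles have a mean at or above the filter and open circles below it. Values run from -0.37 for Tnfrsf9 on 1421481_at to 3.92 for Gzmb, and the 8 filled circles lie between 1.56 and 3.92.

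Within each group, neither replicate was the higher one on all of the probe sets. Bitransgenic replicate 1 was above bitransgenic replicate 2 on 11 of the 16 probe sets, with 506.8 and 273.6 for Gzmb as an example. Wild type replicate 1 was above wild type replicate 2 on 8 of the 16. The wild type arrays lay far apart for Il2ra and for the dimmer probe sets of Icos, and close together for Tnfrsf9 on 1460469_at. The gene whose log2 values over the 4 arrays lay nearest to those of Tnfrsf18, the brightest of the 10, was Slc15a3, a peptide and histidine transporter of lysosomes, at a Euclidean distance of 0.147 after centring each gene. It read 375.1 and 301.1 in bitransgenic skin, against 109.3 and 81.8 in wild type skin. Crabp2, which binds retinoic acid, and Stom, a membrane protein, came next at distances of 0.193 and 0.196. Such a ranking over 4 arrays among 13070 genes is a description.

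Position on the chromosome was compared because 5 of the 10 genes lie next to another of them in the RefSeq order of protein-coding genes (GRCm38.p6). Cd28, Ctla4 and Icos follow each other on chromosome 1, and Tnfrsf4 and Tnfrsf18 are neighbours on chromosome 4. The groups were separated for Ctla4 and Icos and for Tnfrsf4 and Tnfrsf18, while the brightest probe set of Cd28 overlapped. Flanking the 10 genes are 14 other protein-coding genes, of which 13 were tested, and limma called 0 of them in either direction, against 2.33% of all genes. The unadjusted p was under 0.05 for 3 of the 13, against 16.7% of all genes, and these were lower without overlap in bitransgenic skin: Atp12a, a proton pump subunit next to Gzmb (-2.27 ± 0.47, adjusted p = 0.0682), Pard3b next to Icos (-1.39 ± 0.35, adjusted p = 0.109) and Gpx8 next to Gzma (-0.82 ± 0.30, adjusted p = 0.235). The median log2 difference of the 14, with the dim Gzmk included, was -0.28. Sdf4, next to Tnfrsf4, read 3405 and 3302 in bitransgenic skin, against 2788 and 3234 in wild type skin (0.16 ± 0.23, adjusted p = 0.794). Gzmc, a granzyme gene next to Gzmb, read 735.4 and 347.3 in bitransgenic skin, against 394.5 and 84.5 in wild type skin. Its groups overlapped (1.36 ± 0.70, adjusted p = 0.408), and the wild type arrays stood far apart.

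Other genes of T cell activation were taken in 8 lists of 129 genes in all, of which 118 were measured by a probe set with 1 symbol and 79 were tested. In limma's fit 1 of the 79 rose, 2 fell, and 76 did not pass, or 3.80% called in either direction against 2.33% of all genes. An unadjusted p under 0.05 was found for 21 of the 79, against the same 16.7% of all genes. The median log2 difference was 0.30, against 0.0053 over all genes tested.

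The gene that rose was Tbx21, which codes for T-bet, the transcription factor of type 1 helper and cytotoxic lymphocytes. It read 181.1 and 169.0 in bitransgenic skin, against 8.4 and 23.0 in wild type skin, a log2 difference of 2.63 ± 0.41 (adjusted p = 0.0337). Both wild type signals lay below 57.0, so Tbx21 passed the filter through its bitransgenic signals, and a pseudocount of 64 lowered the difference to 1.59. The adjusted p was 0.136 when bitransgenic replicate 1 was left out, 0.0941 when bitransgenic replicate 2 was, and 0.0562 with no filter, and with a pseudocount of 1 the gene did not pass the filter. Of 18 tested transcription factors of T cell activation it was the only one to pass in this fit, 7 had an unadjusted p under 0.05, and the median was 0.22. The 3 next smallest p-values, named after they were seen, ran both ways. Maf, a transcription factor of helper T cells and macrophages, read 1898 and 1968 in bitransgenic skin, against 4079 and 5228 in wild type skin (-1.25 ± 0.24, adjusted p = 0.0602). Egr2, a zinc finger factor induced by antigen receptor signals, read 7063 and 6949 in bitransgenic skin, against 3426 and 3311 in wild type skin (1.05 ± 0.22, adjusted p = 0.0697). Batf, an AP-1 factor of activated lymphocytes, read 247.5 and 302.9 in bitransgenic skin, against 76.1 and 21.3 in wild type skin (2.31 ± 0.50, adjusted p = 0.0816). All signals of Maf and Egr2 lay above those given below for Cd3e, Cd3d and Cd3g. Which cells of the skin gave the signals of Maf and Egr2 was not tested.

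The genes that fell were Cd7 and Prdm1. Cd7, a surface receptor of T and natural killer cells, read 15.3 and 17.1 in bitransgenic skin, against 293.8 and 240.5 in wild type skin (-3.13 ± 0.36, adjusted p = 0.0144). Both bitransgenic signals lay below 57.0, so Cd7 passed the filter through wild type skin, and a pseudocount of 1 made its difference -3.96 and one of 64 made it -2.04. Without bitransgenic replicate 1 its adjusted p was 0.0604. Prdm1, or Blimp-1, a transcriptional repressor that drives terminal differentiation of lymphocytes and is also made in skin epithelium, read 921.9 and 696.0 in bitransgenic skin, against 2366 and 2653 in wild type skin (-1.63 ± 0.26, adjusted p = 0.0356). Its adjusted p was 0.116 when bitransgenic replicate 1 was left out, 0.178 when bitransgenic replicate 2 was, 0.0509 with no filter and 0.0634 with no intensity trend. Cd7 was the only call among 14 tested genes of the T cell receptor complex and its signalling, of which 9 had positive values, 3 had an unadjusted p under 0.05 and the median was 0.41.

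In 4 other lists with tested genes, limma called 0 genes. Among 8 costimulatory ligands tested, 7 had positive values and the median was 0.90, and 3 had an unadjusted p under 0.05. Icosl, the ligand of Icos, read 492.8 and 608.8 in bitransgenic skin, against 293.1 and 227.8 in wild type skin (1.04 ± 0.31, adjusted p = 0.161). Of 8 other costimulatory and inhibitory receptors tested, 7 had positive values, 3 had an unadjusted p under 0.05 and the median was 0.65. Klrg1, a receptor of differentiated effector cells, read 304.9 and 325.0 in bitransgenic skin, against 117.8 and 123.0 in wild type skin (1.28 ± 0.32, adjusted p = 0.111). Of 10 genes of the interleukin 2 pathway none had an unadjusted p under 0.05, and the median was 0.29. Socs3, an inhibitor of cytokine signalling, had a value of 0.75 ± 0.37 (adjusted p = 0.387).

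Other granule genes were described next to Gzmb. Of 11 cytotoxic granule genes tested, 4 were positive and 7 negative, the median was -0.057, and 2 had an unadjusted p under 0.05. Prf1, chosen after its values were seen, codes for perforin, the pore protein that lets granzymes into the target cell. It read 86.4 and 91.0 in bitransgenic skin, against 111.3 and 70.9 in wild type skin, with overlap and a 95% interval of the log2 difference from -0.93 to 0.92. Rab27a, a GTPase of granule release that melanocytes also use, read 207.2 and 204.9 in bitransgenic skin, against 538.7 and 361.2 in wild type skin (-1.04 ± 0.34, adjusted p = 0.186). Of 10 other regulatory T cell genes tested, 1 fell, Prdm1 as above, 5 had positive values and the median was -0.030. Over the 15 of that list measured, with no filter, the median was 0.45. Of these 15, 5 were higher without overlap, against 22.6% of all genes read at 1 probe set, 4 were lower without overlap and 6 overlapped. None of 11 measured effector cytokines passed the filter. Ifng, or interferon gamma, chosen after its values were seen, read 2.5 and 12.5 in bitransgenic skin, against 2.0 and 9.2 in wild type skin. Of these 11, 8 lay below 57.0 on all 4 arrays. The groups were separated with bitransgenic skin higher for 6 of the 11, against 22.6% of all genes read at 1 probe set. Of those 6, only Il9 rose above 57.0, at 104.6 and 59.6 in bitransgenic skin, against 25.7 and 17.4 in wild type skin. At signals this dim, nothing is read from the count.

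**Figure D3:**
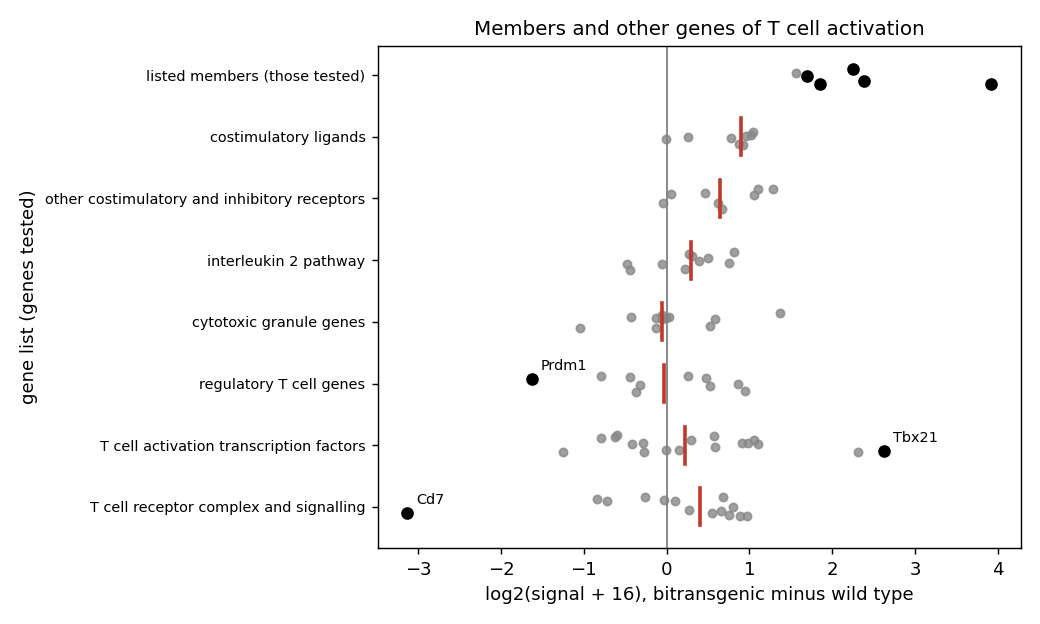
Log2 difference of bitransgenic minus wild type skin for each gene tested, by list, with black circles for genes past an adjusted p of 0.05 in limma's fit and grey circles for the others; red bars mark the median of each list other than the members. The 6 members that were tested lie between 1.56 and 3.92, and they were chosen on this contrast. Single genes of the other lists run from -3.13 for Cd7 to 2.63 for Tbx21, and the medians of these lists from -0.057 to 0.90.

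The general markers of T cells were set beside these values. Of 7 T cell markers measured and tested, 0 passed limma's threshold in either direction, 1 had an unadjusted p under 0.05, and the median was 0.10. The summed signal of the list ran from 2802 to 3716 in bitransgenic and from 2601 to 4151 in wild type skin, so the bitransgenic range lay inside the wild type range, and most of each sum was Thy1. Cd3e, a chain of the antigen receptor complex, read 116.3 and 238.4 in bitransgenic skin, against 283.8 and 146.5 in wild type skin, with overlap and a 95% interval of the log2 difference from -1.43 to 0.89. Cd3d read 149.1 and 235.4 in bitransgenic skin, against 232.2 and 128.7 in wild type skin (-0.91 to 1.12). Cd3g, another chain, read 270.8 and 298.5 in bitransgenic skin, against 567.0 and 406.2 in wild type skin, lower without overlap (-0.72 ± 0.32, adjusted p = 0.329). Cd2, a T cell adhesion receptor, read 141.4 and 136.0 in bitransgenic skin, against 88.4 and 43.5 in wild type skin. Cd247 and Cd5 were likewise higher without overlap, which made 3 of the 7, against 22.6% of all genes read at 1 probe set. For Cd2, Cd247 and Cd5 the log2 differences were 0.97, 0.89 and 0.55, with adjusted p-values of 0.314, 0.268 and 0.542 in limma's fit. Among these, Cd3e, Cd3d, Cd2, Cd247 and Cd5 were chosen after their values were seen. Thy1, which fibroblasts also carry, read 1871 and 2517 in bitransgenic skin, against 2830 and 1727 in wild type skin (-0.80 to 0.74). The markers therefore differed among themselves in direction. The intervals of Cd3e and Cd3d hold a halving of Cd3e and a doubling of Cd3d, so these values do not exclude such changes. The part of T cell number in the values of the 10 genes was not tested.

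Markers of other cells moved with the genotype in part. All 9 macrophage and monocyte markers had positive values with a median of 1.03, none passed limma's threshold, and 6 had an unadjusted p under 0.05. Their summed signal ran from 21519 to 29187 in bitransgenic and from 10003 to 16462 in wild type skin, without overlap. Lyz2, a lysozyme of macrophages and neutrophils, read 8175 and 13098 in bitransgenic skin, against 4657 and 3460 in wild type skin (1.36 ± 0.31, adjusted p = 0.0905), and Csf1r, the receptor of macrophage growth factor, had 0.53 ± 0.36 (adjusted p = 0.528). All 5 neutrophil markers tested of 8 measured had positive values with a median of 1.84, and 4 had an unadjusted p under 0.05. Of the 8, 6 were higher without overlap, against 22.6% of all genes read at 1 probe set, 0 were lower and 2 overlapped. S100a9 rose (2.61 ± 0.39, adjusted p = 0.0304), and the summed signal ran from 8620 to 9573 in bitransgenic and from 2147 to 7082 in wild type skin. Keratinocytes under stress express S100a8 and S100a9 too. The other bright marker of that list, S100a8, had 0.74 ± 0.59 with overlap (adjusted p = 0.600). Ngp and Csf3r, named after their values were seen, were higher without overlap. Ngp had 1.92 ± 0.37 (adjusted p = 0.0581) and Csf3r had 1.84 ± 0.40 (adjusted p = 0.0793), with both wild type signals of Csf3r below 57.0. Sums of 9 dendritic and Langerhans cell markers overlapped, at 16479 to 34437 in bitransgenic and 10845 to 18553 in wild type skin, and H2-Aa and Cd74, of antigen presentation, had 0.96 ± 0.40 (adjusted p = 0.302) and 0.93 ± 0.40 (adjusted p = 0.316). H2-Eb1, another class II gene, named after its values were seen, ran the other way, at 215.1 and 359.5 in bitransgenic skin, against 2242 and 1002 in wild type skin (-2.36 ± 0.46, adjusted p = 0.0599). The 6 measured natural killer cell markers summed to between 320.6 and 471.6 in bitransgenic and between 279.9 and 478.0 in wild type skin, with 4 of them below 57.0 on all 4 arrays and Klrd1 and Klrk1 above it. Mast cell sums overlapped as well, at 4776 to 6858 in bitransgenic and 4945 to 7036 in wild type skin. Of 5 B cell markers, Cd79a and Ms4a1 stayed below 57.0 on all 4 arrays. Only 2 of 9 gamma delta T cell markers were measured by a probe set with 1 symbol, Sox13 and Blk, so that list says nothing firm about dendritic epidermal T cells. All 6 fibroblast markers were lower without overlap, against 19.3% of all probe sets, with sums of 59197 to 77343 in bitransgenic and 114607 to 130752 in wild type skin. Limma called 0 of these 6, and 4 had an unadjusted p under 0.05. Keratinocyte sums overlapped at 116173 to 169888 in bitransgenic and 124668 to 141218 in wild type skin. Endothelial sums overlapped too, at 2030 to 2567 in bitransgenic and 2155 to 2790 in wild type skin. Melanocyte markers summed to 2453 and 2614 in bitransgenic skin, against 5286 and 16110 in wild type skin. Of the 5 melanocyte markers limma called 1, Mitf, which fell (-2.11 ± 0.28, adjusted p = 0.0201). The other markers of that list had adjusted p-values of 0.414 to 0.609, and Tyr and Tyrp1 overlapped. Dct, Tyr, Tyrp1 and Pmel were far higher in wild type replicate 2 than on the other 3 arrays. The part of these shifts in the values of the 10 genes was not tested.

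**Figure D4:**
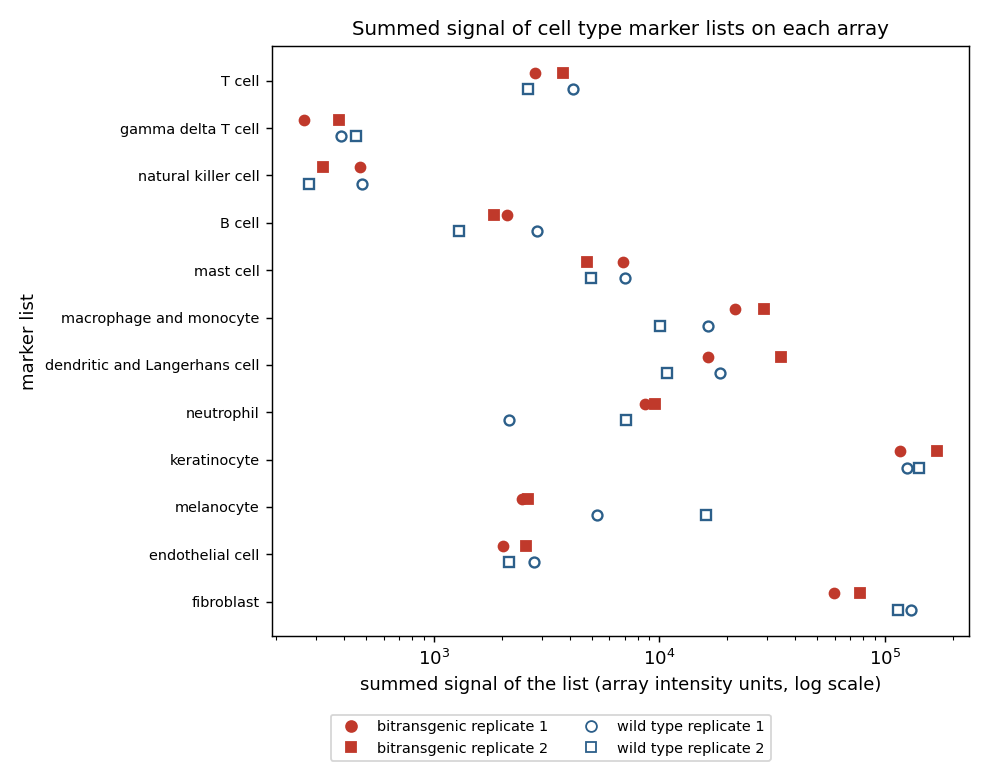
Summed signal of each cell type marker list on each array, in array intensity units on a log scale, with bitransgenic arrays as filled and wild type arrays as open symbols. The bitransgenic T cell sums of 2802 and 3716 lie between the wild type sums of 2601 and 4151, whereas the macrophage and monocyte sums do not overlap.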

How the data were processed

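RNA of dorsal skin was measured on 4 single-colour Affymetrix arrays, 2 bitransgenic and 2 wild type, grouped by the labels. The deposited values are linear probe set intensities, which, per the submitters' processing notes, involved MAS5 and affy, with no role or order stated. The signals carry no detection calls. Symbols came from the platform annotation, and probe sets with several symbols named no gene.

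Signals were taken as log2(signal + 16) without further normalization. Probe sets whose mean over the 4 arrays reached the 40th percentile were kept (27022), and the brightest stood for its gene. Genotypes were tested by limma (version 3.58.1, under R version 4.3.3; lmFit, eBayes with an intensity trend, Benjamini-Hochberg over 13070 genes, threshold 0.05), with 2 residual and 4.45 prior degrees of freedom. A second fit took all 45037 probe sets without a filter. Standard errors of the 10 genes come from that second fit and those of all other genes from the first. The code was tested on simulated data. The number of arrays limits the precision.

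The 10 genes and the other lists were chosen with earlier results of these data known, and the promoter motifs after the values were seen. Of each pathway list, the text names the genes past the threshold (at most 3, by p) or else that with the smallest p, and of each marker list the 2 brightest (given for the T cell, gamma delta T cell, natural killer, macrophage, dendritic and neutrophil lists; the others by their sums, and Mitf as the call of its list). The others are said to be chosen later or stand for their position. The alternatives were 2 pseudocounts, no filter, 2 normalizations, the mean of probe sets, no _x_at or _s_at probe sets, no trend, a replicate block, and each array left out.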

Additional observations from a re-analysis of the deposited data

How the results depend on the processing

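Over 13 alternatives, 9 of the 10 genes kept a positive log2 difference, and that of Cd28 changed sign in 2. The number of the 10 genes called higher was 5, and 3 with a pseudocount of 1, 1 with no filter and between 1 and 6 with 1 array left out, where the lone array of a group is assumed to vary like the other group. None was called lower under any of them. Their median log2 difference of 1.78 became 1.46 at a pseudocount of 64 and 1.61 when a gene's probe sets were averaged. Of all genes, 98 were called higher and 206 lower. These counts were 52 and 132 with no filter, and 22 to 314 and 96 to 635 with 1 array left out. Of the pathway genes, 1 was called higher and 2 lower. The count of higher genes was 0 with a pseudocount of 1, 0 with no filter and 0 to 3 with 1 array left out, and that of lower genes 1 with no filter, 1 without the intensity trend and 0 to 3 with 1 array left out. The cause of these changes was not tested beyond what the fewer arrays or the larger number of genes tested set by construction. Equal array medians moved the median of all genes to 0.083, and quantile normalization to 0.041.

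Replicate numbers are shared between genotypes, and deviations of same-numbered arrays from their group means correlated at 0.336 over 27022 probe sets, but the labels do not say that a number marks a litter or batch. With replicate number as a block, 207 genes were called higher and 438 lower, 2 pathway genes higher (Egr2 and Tbx21) and 3 lower (Cd7, Maf and Prdm1), and 6 of the 10 genes, Tnfrsf4 included. Dim signals limit Gzma, Il2ra, Foxp3 and Cd28 most.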
